A study of Mus musculus with 4 samples.

Results

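Astrocyte nuclei made up 67 of the 14367 nuclei that the authors kept in a single-nucleus RNA sequencing experiment on the adult mouse dentate gyrus. The members were chosen by the cluster name (Astro) in the authors' own table. They came from 3 of the 4 libraries, with 22 nuclei from w1, 21 from w2 and 24 from w4. None of the 3426 kept nuclei of w8 carried the name, a count that allows a share of up to 0.0876%. Mice of both sexes with a tamoxifen-inducible Cre (CreERT2) driver and the reporter CAGfloxStop-Sun1/sfGFP had received tamoxifen, so that cells with active Cre, and all their descendants, carried a GFP-tagged nuclear envelope. Each library pooled the left dentate gyri of 4 mice, whose GFP-positive nuclei were sorted 1, 2, 4 or 8 weeks later (w1, w2, w4 and w8). All groups had the same genotype and treatment. As any recombined cell keeps the tag, an astrocyte born from a labelled radial glia-like cell (RGL) and an astrocyte that recombined by itself cannot be told apart.

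Astrocytes take up glutamate and potassium around synapses, turn glutamate into glutamine, supply neurons with lipids and metabolites, and line blood vessels with water channels. RGLs, the neural stem cells of the dentate gyrus, carry many of the same transporters and transcription factors and are known to give rise to granule neurons and to astrocytes. RGLs were the nearest of the other 12 clusters. The comparison with them asks which transcripts differ between astrocyte and RGL nuclei. A level is the number of unique molecular identifiers (UMIs) of a gene in a set of nuclei per 1000000 UMIs of that set (CPM). Differences are log2 differences from 1 edgeR fit over 38 sums of UMIs, 1 for each library and cluster with at least 10 nuclei. Their SE is approximate, as it was worked back from the fit. It is the size of the difference divided by the square root of the quasi-likelihood F statistic. A gene was called at a fold of at least 1.5 and an adjusted p of at most 0.05. The authors clustered the nuclei on the same counts, so the calls describe how the clusters differ and are no independent evidence that they do.

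The astrocyte nuclei held 335189 UMIs, of which 130528 were in w1, 112391 in w2 and 92270 in w4. Their median depth was 5759 UMIs in w1, 5342 in w2 and 3644.5 in w4, and over all 67 nuclei 4670 (range 2299 to 9943), close to the 4091 UMIs of the 1387 RGL nuclei. A gene without any UMI in the 67 nuclei could have a level of up to 8.95 CPM. Over all barcodes, 27 barcode sequences occurred in more than 1 library, and none of them belonged to an astrocyte nucleus. The labels name adult-born granule cells as the cell type of every library. In the astrocyte nuclei the granule cell marker Calb1 had 0 UMIs and Prox1, the homeobox gene of granule neurons, was at 38.8 CPM against 867 CPM in neuroblasts (NB1). The whole list of 15 granule neuron markers summed to 612 CPM against 9195 CPM in the mature granule cells of cluster GCmat1, and 316 of the 612 CPM came from Rgs6.

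The authors named the cluster by genes such as Grin2c, Aqp4 and Htra1, so the levels of these markers describe how the name was given and do not test it. Grin2c, which encodes the GluN2C subunit of NMDA receptors, was at 429 CPM in w1, 249 CPM in w2 and 206 CPM in w4 in astrocyte nuclei. In the 4 RGL sums it lay between 1.88 and 3.91 CPM, so the groups did not overlap. The fitted difference was 6.74 ± 0.47 (SE). A Grin2c UMI was found in 45 of 67 astrocyte nuclei (67.2%, exact 95% Clopper-Pearson interval 54.6 to 78.2%) and in 15 of 1387 RGL nuclei (1.08%, 0.607 to 1.78%). With every nucleus thinned to 2000 UMIs the shares were 44.8% and 0.510%. None of the 3356 nuclei of the mature granule cell cluster GCmat1, which had a median of 8138 UMIs, held a Grin2c UMI. Intervals cover counting error only.

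Grin2c lies on the minus strand of chromosome 11 (GRCm38, 11:115249169-115267243). The 250 bases before its RefSeq transcription start are shown because Grin2c had the largest difference from RGLs among the genes named by rank and lay outside the expression table behind the authors' clusters. Next to them are the windows before both annotated starts of Atp13a4, a P5-type transport ATPase gene on the minus strand of chromosome 16 that ranked second by the same rule. Capitals mark a match to TTGGCA or its reverse complement TGCCAA, the letters that 1 arm of a nuclear factor I site holds.
Grin2c, GRCm38.p6, chr11:115267244-115267493, minus strand: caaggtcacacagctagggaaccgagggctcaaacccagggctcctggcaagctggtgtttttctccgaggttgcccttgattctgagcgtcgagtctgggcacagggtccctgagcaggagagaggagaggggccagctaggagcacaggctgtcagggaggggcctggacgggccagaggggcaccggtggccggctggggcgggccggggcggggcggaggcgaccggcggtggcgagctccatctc
Atp13a4, GRCm38.p6, chr16:29541484-29541733, minus strand: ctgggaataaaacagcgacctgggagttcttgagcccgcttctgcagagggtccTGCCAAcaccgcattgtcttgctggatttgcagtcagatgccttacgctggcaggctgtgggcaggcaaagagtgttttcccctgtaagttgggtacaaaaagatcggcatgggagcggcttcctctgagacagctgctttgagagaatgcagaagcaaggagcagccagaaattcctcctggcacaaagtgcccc
Atp13a4, GRCm38.p6, chr16:29544865-29545114, minus strand: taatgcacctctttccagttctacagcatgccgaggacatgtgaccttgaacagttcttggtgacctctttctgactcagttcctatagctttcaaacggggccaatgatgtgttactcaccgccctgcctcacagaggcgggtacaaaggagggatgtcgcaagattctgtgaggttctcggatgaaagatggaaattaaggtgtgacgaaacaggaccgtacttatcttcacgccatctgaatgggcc
The Grin2c window was rich in G and C (68.8%) and held no match. In the Atp13a4 window that starts at 29541484 these letters began at position -196 from the transcription start, and the other Atp13a4 window held none. The same letters, searched on both strands, occurred in 4034 of 32851 windows of this length (12.3%) and in 1099 of 11127 windows of the genes tested (9.88%). It occurred in 92 of 723 windows (12.7%) of genes called higher in astrocytes than in RGLs. The STAT motif TTCNNNGAA, its own reverse complement, was found in 7.02% of all windows, 5.54% of those of the genes tested and 6.22% of those of the called genes. These are matches of letters only, and no share was tested against another.

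Aqp4, the water channel of astrocyte endfeet, was at 138 CPM in w1, 89.0 in w2 and 119 in w4, against 11.7 to 44.6 CPM in the RGL sums (log2 difference 2.80 ± 0.40). It was found in 32.8% of astrocyte nuclei and in 5.98% of RGL nuclei, and after thinning in 13.4% and 3.50%. Glul, which encodes glutamine synthetase, was at 659, 845 and 759 CPM in w1, w2 and w4, and in RGLs at 112 to 245 CPM (2.51 ± 0.22). Htra1, a secreted serine protease gene, was at 690, 480 and 466 CPM, and in RGLs at 84.7 to 233 CPM (2.48 ± 0.20). Slc1a2, the glutamate transporter GLT-1, was at 8856, 6513 and 8237 CPM and in RGLs at 3018 to 4539 CPM (1.23 ± 0.19). For each of these genes every astrocyte sum lay above every RGL sum. The share of all genes tested with such a separation was not counted, for these or for other genes named here. Slc1a2 had a UMI in all 67 astrocyte nuclei and in 99.6% of RGL nuclei. In GCmat1, where its level was 114 CPM, 55.0% of nuclei held a UMI and 20.7% did after thinning, and these shares are not read as expression. In GCmat1, the shares with a UMI were 0.685% for Aqp4, 2.06% for Glul and 2.12% for Htra1. At least 3 of the 5 markers were found in 60 of 67 astrocyte nuclei and in 220 of 1387 RGL nuclei. All 5 were found in 16 astrocyte nuclei and in 0 of the 14300 kept nuclei of other clusters.

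**Figure D1:**
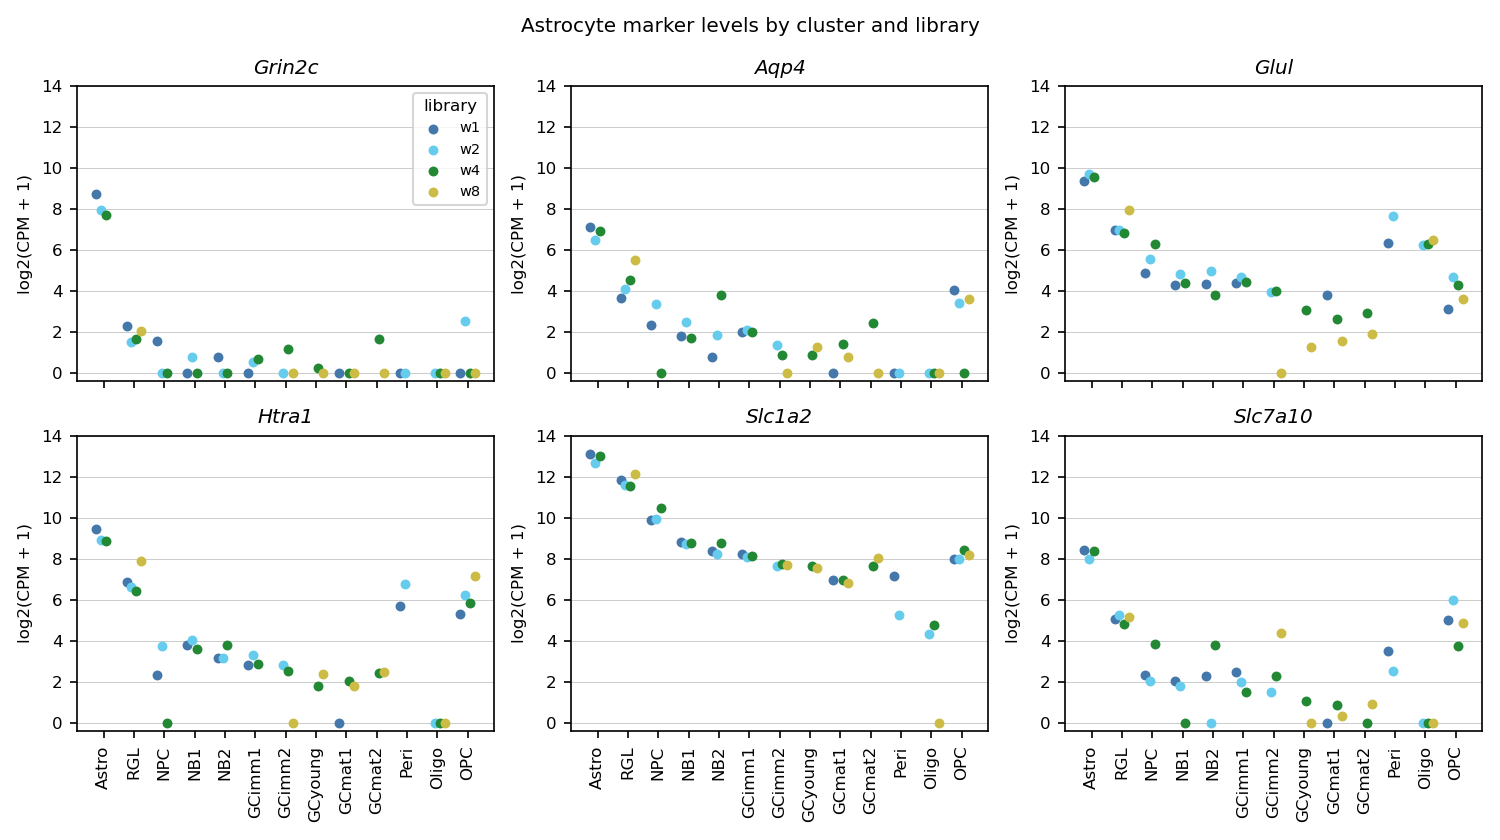
Levels of 6 astrocyte markers in every cluster, as log2(CPM + 1) on the vertical axis, with 1 point per library (w1, w2, w4, w8) for each sum of at least 10 nuclei. In each panel the 3 astrocyte points lie above all other points, and the gap is widest for Grin2c, at 206 to 429 CPM in astrocytes and at most 3.91 CPM in RGLs.

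Of 14 astrocyte markers, 13 were called higher in astrocytes than in RGLs and 1 lower, where 5.85% of all 11548 genes tested were called higher and 5.14% lower. Their median difference was 2.07, against -0.21 over all genes tested. Slc7a10, the Asc-1 carrier of D-serine and small amino acids, was at 307 CPM against 33.0 CPM in RGLs (3.28 ± 0.30). Gjb6 and Gja1, the connexins of astrocyte gap junctions, were at 140 against 11.8 CPM (3.59 ± 0.45) and at 364 against 93.9 CPM (1.98 ± 0.25). Aldh1l1, a folate enzyme gene in wide use as an astrocyte marker, was at 164 against 39.2 CPM (2.16 ± 0.32). The exception was Slc1a3, the transporter GLAST, at 2373 to 2750 CPM in astrocytes and 4435 to 5293 CPM in RGLs (-0.76 ± 0.21). Its call was lost without w4 (-0.71) and with DESeq2 (-0.60). Aldoc without w1 or w2, Slc6a11 without w1 or w4, and S100b without w1 or w4 lost their calls, at differences between 0.62 and 1.70. Aldoc was also not called with DESeq2 (0.96), without the library term (1.00) or with thinning (0.89), and S100b not with thinning (1.62). By level, 11 of the 14 markers were highest in astrocytes among the 13 clusters, while Slc1a3 was highest in RGLs, Gjb6 in pericytes (Peri, 287 CPM) and S100b in oligodendrocyte precursor cells (OPC, 69.6 CPM).

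Over all genes, 1269 of 11548 (11.0%) were called between astrocytes and RGLs, 675 higher in astrocytes (5.85%) and 594 lower (5.14%). Of the genes called lower, 81 had no UMI in astrocyte nuclei, and of those called higher, 3 had none in RGLs. With RLE size factors 819 genes were higher and 428 lower, and with DESeq2, which changes the model as well as the scaling, 867 were higher and 313 lower. The median over all genes moved from -0.21 to -0.05 and 0.00. Against the mean of the other 12 clusters, 2573 genes (22.3%) were called, 1658 higher (14.4%) and 915 lower (7.92%). A gene at 0 UMIs in any other cluster has an unbounded term in that mean. This touched 3046 of the genes tested, of which 756 were called higher and 0 lower. Among the 8502 genes with UMIs in every other cluster, 902 were higher in astrocytes and 915 lower. Of the 675 genes higher than in RGLs, 559 were also higher than the mean of the other clusters and 11 were lower than it. Another 69 genes were higher in astrocytes than that mean but lower than in RGLs, and 1030 were higher than the mean without a call against RGLs. Among genes with at least 30 astrocyte UMIs, 447 of 1978 (22.6%) had their highest level in astrocytes.

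**Figure D2:**
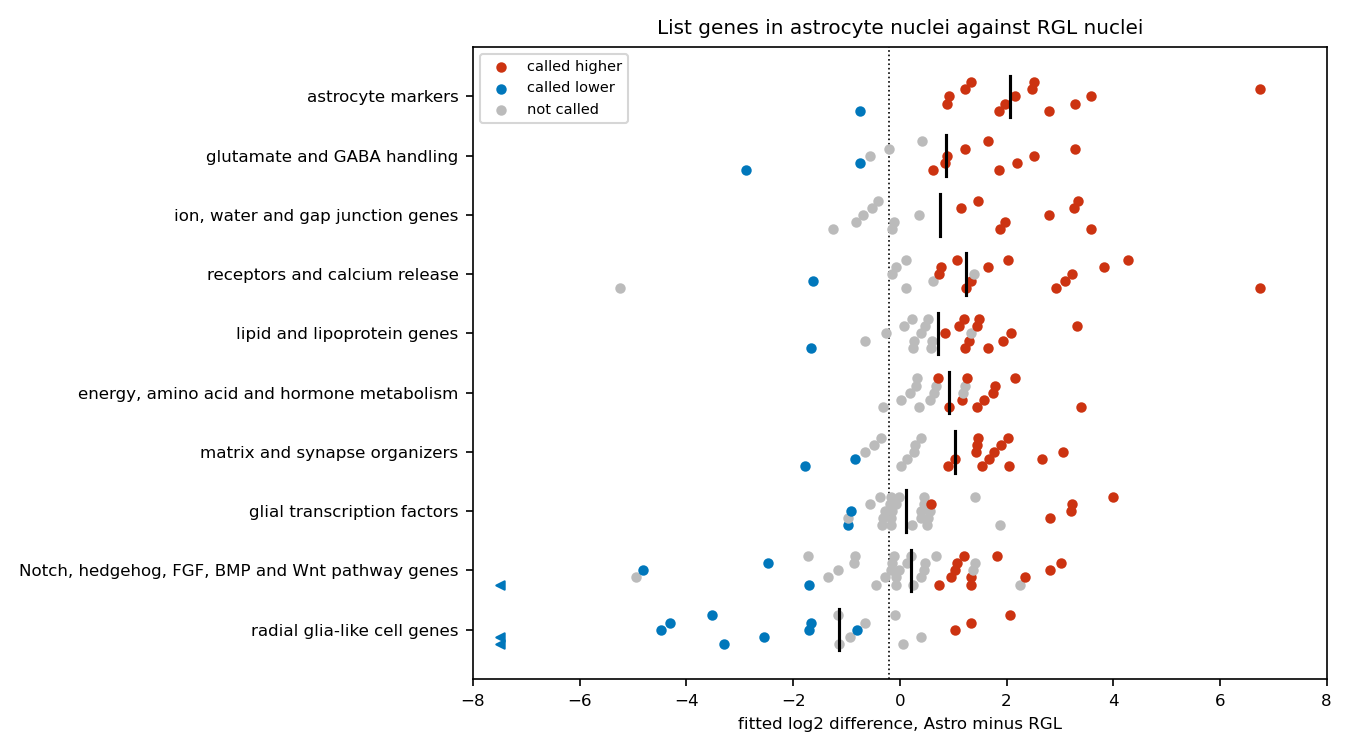
Fitted log2 difference between astrocyte and RGL nuclei (horizontal axis) for each tested gene of 10 lists, red where called higher, blue where called lower and grey where not called. Black bars mark the median of each list and the dotted line the median of all genes tested (-0.21). Triangles at the left edge mark differences beyond the axis, all of genes without UMIs in astrocytes. The list of RGL genes has a median of -1.14, and the astrocyte markers have one of 2.07.

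Of 14 genes of glutamate and GABA handling, 9 were called higher than in RGLs, 2 lower and 3 were not called (median 0.87). The shares over all genes tested were 5.85% higher and 5.14% lower. The list's higher calls fell to 4 without w1, 6 without w2 and 5 without w4. Those over all genes tested fell too, from 675 to 429, 468 and 504. Slc7a11, the cystine and glutamate antiporter xCT, was at 176, 178 and 228 CPM in w1, w2 and w4, and at 44.2 to 66.5 CPM in RGLs (1.86 ± 0.30). It was not particular to astrocytes, as pericyte nuclei held 5711 CPM. Slc38a3, a glutamine exporter, was at 86.5 against 19.5 CPM (2.19 ± 0.43), and its call was lost without w1 (1.61). Slc38a1, the glutamine transporter of neurons and progenitors, was lower, at 15.3 CPM in w1, 17.8 in w2 and 163 in w4, against 343 to 564 CPM in RGLs (-2.89 ± 0.33). The w4 library held most of its astrocyte UMIs and still lay below all RGL sums, and without it the difference was -4.64.

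Among 16 genes for ions, water and gap junctions, 8 were called higher and 0 lower, with a median of 0.75. For all genes tested the shares were 5.85% and 5.14%. Slc4a4, the sodium bicarbonate cotransporter NBCe1, was at 2605, 1931 and 1897 CPM in w1, w2 and w4, and at 208, 153, 167 and 602 CPM in the RGL sums of w1, w2, w4 and w8 (3.26 ± 0.28). The groups did not overlap, and 98.5% of astrocyte nuclei but 30.1% of RGL nuclei held a UMI. Mature granule neurons also carried the transcript (1038 CPM in GCmat1). The sodium pump subunit gene Atp1b2 was higher too (203 against 55.7 CPM, 1.89 ± 0.26). Kcnj16, a subunit of inward rectifier potassium channels, was at 30.6, 17.8 and 75.9 CPM against 2.94 to 4.70 CPM in RGLs (3.34 ± 0.66). It rested on 13 UMIs, and its call was lost without w4 (2.69). Its partner Kcnj10, the channel Kir4.1, was not called (-0.40 ± 0.33), nor were Mlc1 (-0.52 ± 0.43) and Hepacam (0.35 ± 0.20), a pair of membrane genes of astrocyte junctions.

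Of 21 receptor and calcium release genes tested, 13 were called higher and 1 lower (median 1.23). Over all genes tested 5.85% were called higher and 5.14% lower, so the 1 lower call is not read as a trait of the list. Gabrg1, a GABA-A receptor subunit, was at 146, 80.1 and 108 CPM in w1, w2 and w4, and at 4.78 to 9.56 CPM in RGLs (4.27 ± 0.41). Gabbr2, a GABA-B receptor subunit, was at 176, 26.7 and 86.7 CPM against 2.61 to 11.0 CPM (3.83 ± 0.49), although GCmat1 nuclei held more of it (548 CPM). Its difference was 2.33 without w1 and 4.53 without w2. Ednrb, the endothelin B receptor, was at 69.0, 80.1 and 238 CPM, and in RGLs at 7.36 to 41.4 CPM (3.23 ± 0.45, and 2.41 without w4). Adra1a, the alpha-1A adrenoceptor, was at 86.5 against 11.6 CPM (2.92 ± 0.48). F3, the gene of tissue factor, was at 506, 383 and 509 CPM against 44.8 to 92.4 CPM (3.10 ± 0.22) and was found in 88.1% of astrocyte nuclei and 19.0% of RGL nuclei. Itpr2, the IP3 receptor of astrocyte calcium release, was at 415 against 139 CPM (1.65 ± 0.18). The AMPA receptor gene Gria1 was the member called lower, at 161, 116 and 499 CPM against 687 to 870 CPM (-1.62 ± 0.28, and -2.44 without w4). Its partner Gria2 was not called (0.12 ± 0.19), and neither was Ntrk2, the BDNF receptor (0.11 ± 0.18).

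Lipid and lipoprotein genes had 11 of 24 members called higher and 1 lower (median 0.72). As 5.85% of all genes tested were called higher and 5.14% lower, the 1 lower call is not read as a trait of the list. The list's higher calls fell to 4 without w1, 7 without w2 and 8 without w4. Those over all genes tested fell from 675 to 429, 468 and 504 in the same order. Clu, the lipoprotein clusterin, was at 444, 489 and 358 CPM, and in RGLs at 139 to 173 CPM (1.45 ± 0.25). Acsl6, an acyl-CoA synthetase gene, was at 248 against 82.0 CPM (1.65 ± 0.23), and Hmgcs1, of the cholesterol pathway, was at 125 against 32.6 CPM (1.93 ± 0.38). Apoe was found in all 67 nuclei, at 954 to 1299 CPM against 647 to 730 CPM in RGLs, and was not called (0.54 ± 0.23). Thrsp, a regulator of lipid synthesis known from quiescent stem cells, was the member called lower (155 against 506 CPM, -1.66 ± 0.23). In the list of energy, amino acid and hormone metabolism, 10 of 21 genes were called higher and 0 lower (median 0.91), and 5 to 7 were when 1 library was left out. Slco1c1, a thyroid hormone and organic anion transporter, was at 720, 507 and 531 CPM against 130 to 218 CPM (1.75 ± 0.21). Dio2, which activates thyroid hormone, was at 98.5 against 38.5 CPM (1.44 ± 0.38), but its call was lost without w1 (0.92) and without w4 (1.22), and the w2 astrocytes (44.5 CPM) lay below the w8 RGLs (66.9 CPM). Mt1, a metallothionein gene, was at 403 against 162 CPM (1.25 ± 0.26). Gldc, the glycine decarboxylase gene, was at 459 against 468 CPM and was not called (0.02 ± 0.19).

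Matrix and synapse organizers had 13 of 23 genes called higher and 2 lower (median 1.03). With 5.85% of all genes tested called higher and 5.14% lower, the 2 lower calls are not read as a trait of the list. Bcan, which encodes the matrix proteoglycan brevican, was at 498, 534 and 412 CPM against 56.7 to 134 CPM in RGLs (2.66 ± 0.24). Hapln1, a link protein of the same matrix, was at 69.0, 80.1 and 97.5 CPM against 8.26 to 38.2 CPM (3.06 ± 0.46). Mertk, the phagocytic receptor of astrocytes and microglia, was at 1318, 1192 and 1051 CPM and in RGLs at 279 to 545 CPM (1.89 ± 0.22). Gpc5, a glypican gene, was at 12939 against 3839 CPM (1.67 ± 0.28). The cell adhesion genes Lsamp (20388 against 7614 CPM, 1.42 ± 0.25), Ntm (6265 against 2348 CPM, 1.47 ± 0.24) and Cadm2 (4791 against 1804 CPM, 1.44 ± 0.22) were higher as well. Tnc and Ptprz1, a matrix glycoprotein of neural stem cells and its receptor, were lower. Tnc was at 53.6, 97.9 and 347 CPM in w1, w2 and w4 against 351 to 731 CPM (-1.78 ± 0.33), with the w4 astrocytes just below the lowest RGL sum, and its difference was -1.14 without w1 and -2.91 without w4. Ptprz1 was at 1602 to 2243 CPM against 3340 to 3966 CPM (-0.83 ± 0.24), without a call when w4 was left out (-0.90). With DESeq2 neither Tnc (-1.67) nor Ptprz1 (-0.68) was called.

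Of 20 genes known from RGLs, 10 were called lower, 3 higher and 7 were not called (median -1.14). All genes tested had 5.14% called lower and 5.85% higher. In the list, 1 gene was called higher without w4 and 0 of 18 were when nuclei were thinned to 2000 UMIs. DESeq2 called 6 of the 20 lower. The paper lists Sox5, Thrsp and Lpar1 as RGL markers from its own comparison of RGLs with this cluster. Results for these genes therefore describe that choice and are no separate support. Lpar1, the lysophosphatidic acid receptor used to mark RGLs, had 0 UMIs in the 67 astrocyte nuclei and 1000 UMIs in RGLs, where its level was 134 to 196 CPM. Against the floor of 3 UMIs over all astrocyte nuclei it was at least 18.3-fold higher in RGLs. Tfap2c was also at 0 in astrocytes and at 51.1 CPM in RGLs. Wnt8b and Frzb, of the Wnt pathway, had 1 UMI each in astrocyte nuclei, against 68.5 and 64.9 CPM in RGLs. Hopx was at 69.0, 44.5 and 43.4 CPM against 245 to 329 CPM (-2.55 ± 0.37), and Notch2 was at 276, 347 and 228 CPM against 711 to 1090 CPM (-1.70 ± 0.21). Vcam1 (68.6 against 16.7 CPM, 2.06 ± 0.46) and the FGF-responsive factors Etv4 and Etv5 were higher in astrocytes. Of these, Vcam1 was not called without w4 (1.54), Etv4 (1.04) without w2 (0.89) or w4 (0.83), and Etv5 (1.34) without w1 (0.85). With thinning none of the 3 was called, at 1.86 for Vcam1, 1.18 for Etv5 and -0.13 for Etv4. The w1 astrocytes lay among the RGL sums for Etv4. Egfr, Hes5, Vim and Fabp7 were not called, at differences between -0.65 and 0.39, and no direction is read for them. That of Fabp7 was -3.07 without w2 and 0.002 without w1, and that of Hes5 went from 0.39 to -0.63 without w2. Nes had 0 UMIs in astrocytes and was too low to be tested.

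The cell cycle genes had 0 of 19 called higher and 3 lower, where all genes tested had 5.85% higher and 5.14% lower. The 3 were Cdk6 (5.97 against 236 CPM, -5.19 ± 0.70), the cyclin gene Ccnd2 (41.8 against 180 CPM, -1.98 ± 0.41) and the polymerase gene Pola1 (53.7 against 131 CPM, -1.24 ± 0.34), and Pola1 was not called without w4 (-1.05). Top2a, Mki67 and 9 other genes of this list had 0 UMIs in the 67 nuclei. The list summed to 203 CPM in astrocytes, 736 CPM in RGLs and 5150 CPM in neural progenitor cells (NPC). In RGLs these 11 genes were at 6.72 CPM or less, below the 8.95 CPM that a count of 0 allows here, so a difference was not detectable at this depth.

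Of 30 glial transcription factors, 5 were called higher, 2 lower and 23 were not called. Over all genes tested 5.85% were called higher and 5.14% lower, so the 2 lower calls are not read as a trait of the list. Without w4 none was called lower. Sox9 was at 188 against 138 CPM (0.46 ± 0.28), Nfia at 2390 against 2640 CPM (-0.07 ± 0.19) and Gli3 at 576 against 662 CPM (-0.17 ± 0.19), and none of them was called. Those called higher were Rorb, Meis2, Id2, Id3 and Rora. Rorb, a nuclear receptor gene, was at 1808, 2118 and 1951 CPM against 173 to 277 CPM in RGLs (3.23 ± 0.25) and was found in 97.0% and 36.4% of nuclei. Meis2, a homeobox gene, was at 283, 214 and 368 CPM against 0 to 25.4 CPM (4.00 ± 0.42), and was found in 56.7% of astrocyte nuclei and 2.74% of RGL nuclei. NPC nuclei held 213 CPM of Meis2 and so also lay above the 19.8 CPM of RGLs. Id2 and Id3, inhibitors of neurogenic bHLH factors, were at 215 against 24.1 CPM (3.20 ± 0.27) and 176 against 25.6 CPM (2.81 ± 0.37), whereas Id4 was not called (-0.15 ± 0.26). Rora (0.59 ± 0.20) was not called when any library was left out, at 0.43 to 0.58. Zbtb20 was lower, at 3641 to 4765 CPM against 6907 to 9765 CPM (-0.92 ± 0.23), but not without w4 (-0.83). Zfp36l1 was lower too (-0.98 ± 0.26), but was not called without w4 (-0.84), with DESeq2 (-0.82) or with thinning (-0.84). Sox2 had 0 UMIs in astrocytes and RGLs. Its gene (3:34650405-34652461) lies inside the longer gene Sox2ot on the same strand, so its level is uncertain.

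Of 39 genes of the Notch, hedgehog, FGF, BMP and Wnt pathways, 11 were called higher and 4 lower (median 0.22). The shares over all genes tested were 5.85% and 5.14%. Without w1 the list's counts were 6 and 2, without w2 they were 7 and 2 and without w4 they were 8 and 2. Higher calls over all genes tested fell as well, from 675 to 429, 468 and 504. Among receptors, Fgfr3 (239 against 98.5 CPM, 1.33 ± 0.25) and the BMP receptor gene Bmpr1b (692 against 379 CPM, 0.96 ± 0.20) were higher, the latter without a call in DESeq2 (1.11), while Fgfr1 (-0.07 ± 0.23) and Bmpr1a (0.22 ± 0.20) were not called. Cdon, a hedgehog co-receptor, had 2 UMIs in astrocytes and a level of 124 to 209 CPM in RGLs (-4.82 ± 0.60). Its relative Boc was at 71.6 against 65.7 CPM and was not called (0.24 ± 0.40). Dner, a Notch ligand gene, was at 30.6, 53.4 and 108 CPM against 1.30 to 14.1 CPM (3.02 ± 0.58). Its difference was 3.82 without w2 and 2.43 without w4. Dll1 was at 0 in astrocytes and at 16.7 CPM in RGLs. Among inhibitors, Spry2, a brake on FGF signalling, was higher (149 against 65.4 CPM, 1.21 ± 0.30) but not without w2 (1.02). Sfrp1, a secreted Wnt inhibitor, was lower (5.97 against 34.1 CPM, -2.47 ± 0.75), although the w1 and w2 astrocytes lay above the w8 RGLs (6.37 CPM). Dll1 and Sfrp1 were not called when any library was left out. The Wnt target Axin2 was not called (0.13 ± 0.54).

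Genes of reactive astrocytes were mostly at or near the limit of detection. Only 10 of 19 could be tested, with 2 higher, 1 lower and 7 not called, where all genes tested had 5.85% higher and 5.14% lower. Without w1, and also with DESeq2 on all libraries, none was called in either direction. Gfap was at 107, 178 and 368 CPM in w1, w2 and w4, and at 87.9 to 157 CPM in RGLs (0.82 ± 0.27), so the w1 sum lay among the RGL sums. It was not called when any library was left out, at 0.47 to 0.88, nor with DESeq2 (0.93), and lost its call under 7 alternatives in all. Osmr, the oncostatin M receptor, rested on 8 UMIs (23.9 against 1.48 CPM). Its call (3.96 ± 0.92) was lost without w1 (3.51) or w2 (3.22), with DESeq2 (4.39) and with thinning (2.49). It was kept without w4 (4.60). Ggta1, a galactosyltransferase gene, was the member called lower, with 2 UMIs in astrocytes against 45.1 CPM in RGLs (-2.77 ± 0.80). It was not called without w1 (-1.95) or w4 (-3.31), with DESeq2 (-2.65) or with thinning (-2.68), but was without w2 (-3.48). Lcn2, Steap4, Timp1, Gbp2 and Cxcl10 had 0 UMIs in astrocytes, and Serpina3n had 1.

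Markers of other cell types were at low levels. Granule neuron markers summed to 612 CPM in astrocytes (543.9, 498 and 845 CPM in w1, w2 and w4), 525 CPM in RGLs and 9195 CPM in GCmat1. Of 15 markers, 1 was called higher than in RGLs and 1 lower. Over all genes tested the shares were 5.85% and 5.14%, so these counts are not read as a trait of the list. The member called higher was Rgs6, a regulator of G protein signalling, at 391, 169 and 390 CPM against 9.56 to 19.9 CPM (4.42 ± 0.33), and it made up 316 of the 612 CPM. The member called lower was Prox1 (-2.33 ± 0.35, and -2.98 without w4). Oligodendrocyte markers summed to 128 CPM against 16562 CPM in oligodendrocytes, with Mog at 0, and precursor markers to 35.8 CPM against 3445 CPM in OPC, with Pdgfra and Sox10 at 0. None of these was called, nor was any marker of endothelium (5.97 CPM in sum) or microglia (56.7 CPM). Of 9 leptomeningeal and pericyte markers tested, 2 were called higher and 1 lower than in RGLs. Higher were Ranbp3l (155 against 64.1 CPM, 1.30 ± 0.32), with the w4 astrocytes (54.2 CPM) among the RGL sums, and Col1a1, with 4 UMIs. Lower was Cped1 (26.9 against 95.2 CPM, -1.75 ± 0.47). Without w1 or w2 Ranbp3l was not called (1.00 in both). Col1a1 was not called without w1 or w4 (4.15 in both) but was without w2 (7.22). With DESeq2 and with thinning neither Ranbp3l (1.21 in both) nor Col1a1 (5.18 and 4.73) was called. Cped1 was not called without w2 (-1.19) but was without w1 (-2.96). The sum of that list was 283 CPM in astrocytes and 6270 CPM in pericytes, with Tbx18, Slc6a13, Dcn and Lum at 0. Interneuron markers were at 8.95 CPM in sum and ependymal markers at 2.98 CPM.

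Among called genes with at least 30 UMIs and the same direction in w1, w2 and w4, those with the largest fitted differences over RGLs included several outside the fixed lists. Atp13a4 was at 299, 205 and 282 CPM in w1, w2 and w4, and at 1.30 to 9.56 CPM in RGLs (6.64 ± 0.45). Atp13a5, its neighbour on the minus strand of chromosome 16, was at 123, 62.3 and 75.9 CPM against 0 to 6.37 CPM (5.93 ± 0.66). Pcdh7, a protocadherin gene, was at 1050, 1023 and 1279 CPM against 6.37 to 31.0 CPM (5.62 ± 0.26) and was found in 88.1% of astrocyte nuclei and 5.12% of RGL nuclei. Vav3, a guanine nucleotide exchange factor gene, was at 314, 303 and 249 CPM against 3.04 to 9.56 CPM (5.99 ± 0.31). Brinp3 (6.35 ± 0.52), Fam163a (5.59 ± 0.53), Rcan2 (5.47 ± 0.51), the host transcript Mir124-2hg (5.69 ± 0.49) and the provisional gene Gm12239 (6.40 ± 0.45) completed the 10. Without w1 the differences were 6.02 for Atp13a4, 5.42 for Gm12239, 5.21 for Brinp3, 4.61 for Atp13a5, 4.32 for Rcan2 and 4.18 for Fam163a, all still called. Without w2 that of Gm12239 was 7.66. Pcdh7 and Brinp3 were higher still in OPC (1223 and 3061 CPM), Vav3 in GCmat1 (372 CPM), Fam163a in immature granule cells (GCimm1, 266 CPM) and Rcan2 in oligodendrocytes (291 CPM), so these 5 separated astrocytes from RGLs but not from every cluster. Gm12239 was found in 25.4% of astrocyte nuclei, fewer than the 64.2% of Atp13a4.

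At the other end, the 10 genes lowest against RGLs all had 0 UMIs in astrocytes. Besides Lpar1 they were Htr2c, Gm20446, Edil3, Sema3e, Fstl5, Rhbdl2, Srcin1, Drd3 and Ano4. Sema3e, a secreted guidance cue, was at 82.5 to 90.5 CPM in the RGL sums and at least 9.63-fold higher there than in astrocytes. Edil3, an integrin ligand gene, was at 100 to 145 CPM in RGLs (at least 13.8-fold) and Ano4, of the anoctamin family, at 57.4 to 73.1 CPM (at least 7.45-fold). Rhbdl2, a rhomboid protease gene, had its highest level of all clusters in RGLs, at 73.9 CPM. Drd3, the dopamine D3 receptor gene, was at 44.2 to 95.6 CPM in RGLs. The serotonin receptor gene Htr2c differed in kind, as its 814 RGL UMIs came from 12 of 1387 nuclei (0.865%), so its level of 133 CPM is not that of a typical RGL nucleus. In w8 the RGLs had none, and its call was lost with RLE factors, without the library term and with thinning (adjusted p 0.084, 0.11 and 0.064 in edgeR). Rhbdl2 was not called by DESeq2 (adjusted p 0.35).

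Against the mean of the other clusters, the same rule named 10 genes, of which Grin2c and Atp13a4 were also among those against RGLs. The rank of a gene at 0 UMIs in another cluster depends on the unbounded term of that cluster. Grin2c, for 1, had 0 UMIs in GCmat1, oligodendrocytes and pericytes. Fam20a, a kinase-like gene of the secretory pathway, was at 337, 356 and 314 CPM, and the next cluster by pooled level, pericytes, was at 120 CPM. RGLs were at 91.5 CPM when pooled, but their w8 sum was at 299.6 CPM, near the w4 astrocytes. Etnppl, which breaks down phosphoethanolamine, was at 329, 142 and 97.5 CPM in w1, w2 and w4, with RGLs next at 37.5 CPM. Its RGL sums reached from 12.5 CPM in w4 to 115 CPM in w8, which is above the w4 astrocytes, so the groups overlapped. Slc39a12, a zinc transporter gene, was at 858, 810 and 585 CPM, with RGLs next at 172 CPM and at 354 CPM in w8. Against RGLs alone, DESeq2 called none of Fam20a (2.14), Etnppl (2.25), Slc39a12 (2.17) and Mertk (1.93), where edgeR called all of them. Slco1c1, Mertk, Grin2c, Atp13a4, the transcription factor gene Tox2 and the provisional transcripts A330033J07Rik and 2900052N01Rik were the others. A330033J07Rik was uneven between libraries (230, 703 and 108 CPM) and was not called against RGLs (0.43 ± 0.24), with a difference of -0.42 without w2. The genes that ranked lowest all had 0 UMIs in astrocytes. They were Edil3, Srcin1, Ano4, Tmem108, Elmo1, Hecw2, Ephb2, Prkcz, Clvs1 and Adam12, and 6 of the 10 had their highest level in oligodendrocytes. Srcin1, Ephb2 and Clvs1 were not called without w2, and Ano4 was not with thinning. Elmo1, an engulfment adaptor gene, was at 737 CPM there, and Adam12, a metalloprotease gene, at 3134 CPM in pericytes.

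The authors' expression table holds 13353 of 45706 features. The authors also picked the most variable genes before clustering, so not every gene of the table need have shaped the clusters. Genes outside the table, among them Grin2c, which helped to name the cluster, could not shape the clusters directly. Of 845 such genes tested, 144 were called (17.0%). Of these, 91 were called higher in astrocytes than in RGLs (10.8%) and 53 lower (6.27%), with a median of -0.21. Thinned nuclei gave 43 higher and 43 lower calls of 488 genes, and without a count filter 124 were higher and 73 lower of 13530 genes. Of those called higher, 59 were among the 466 genes found in at most 1% of nuclei, a group with 2 lower calls whose members could pass the count filter through the clusters where they were high, and 28 were among the 202 genes found in at least 80% of nuclei, with 48 lower calls. No excess of higher calls is read from these counts. The highest were Grin2c, Atp13a4, Atp13a5, Mir124-2hg, Tox2 and Frmd4a. Frmd4a, a scaffold gene of cell polarity, was at 1655, 1370 and 2092 CPM against 134 to 185 CPM in RGLs (3.56 ± 0.21, adjusted p 2.5e-20). The lowest were the provisional genes Gm12680, Gm20757 and Gm13293, all at 0 UMIs in astrocytes, and the neuronal adhesion and guidance genes Dscaml1, Plxna2 and Clstn2. Dscaml1 was at 30.6, 26.7 and 0 CPM against 597 to 1049 CPM (-5.10 ± 0.41, adjusted p 8.0e-15). Plxna2, the plexin A2 gene, was at 30.6, 26.7 and 32.5 CPM against 433 to 597 CPM (-4.05 ± 0.35), and Clstn2, a calsyntenin gene, at 7.66, 17.8 and 32.5 CPM against 193 to 299.6 CPM (-3.65 ± 0.49, and -4.28 without w4). Gm20757 and Gm13293 were not called when any library was left out.

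The same genes could be read in barcodes that took no part in the clustering. The count files hold 2679 barcodes that have no column in the authors' table. Each was assigned to the cluster mean with which its profile over the table's genes correlated best, and 63 were nearest to the astrocyte mean (18 of w1, 27 of w2, 18 of w4, none of w8) and 162 to the RGL mean. Genes outside the table did not enter this choice. Of the 91 genes called higher in kept astrocytes, 82 had at least 5 UMIs in both sets together, and 77 of these (93.9%) were higher in the barcodes nearest to astrocytes than in those nearest to RGLs. Of the 53 called lower, 0 were higher, and of 394 genes without a call 136 were (34.5%). Of the 91 genes, 59 were found in at most 1% of nuclei and could pass the count filter through the clusters where they were high, so these shares are a description and no support for the calls. Grin2c was at 234 CPM (exact 95% Poisson interval 187 to 288) in the 63 barcodes, and had 0 UMIs among the 698062 of the 162 barcodes. Atp13a4 was at 181 against 11.5 CPM, Mir124-2hg at 87.6 CPM against 0 UMIs and Frmd4a at 1723 against 261 CPM. Dscaml1 was at 138 against 849 CPM and Plxna2 at 143 against 607 CPM, both higher than in kept astrocytes. These barcodes come from the same pools of mice and are not independent replicates. The authors removed nuclei with few features, doublets, nuclei of low quality, a block of w4 nuclei and small groups of nuclei, and which of these steps removed the 63 barcodes was not tested. The 63 barcodes had a median mitochondrial share of 0.426% against 0.0273% in kept astrocytes, and granule neuron markers at 1052 against 612 CPM. The part of either in these values was not tested.

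**Figure D3:**
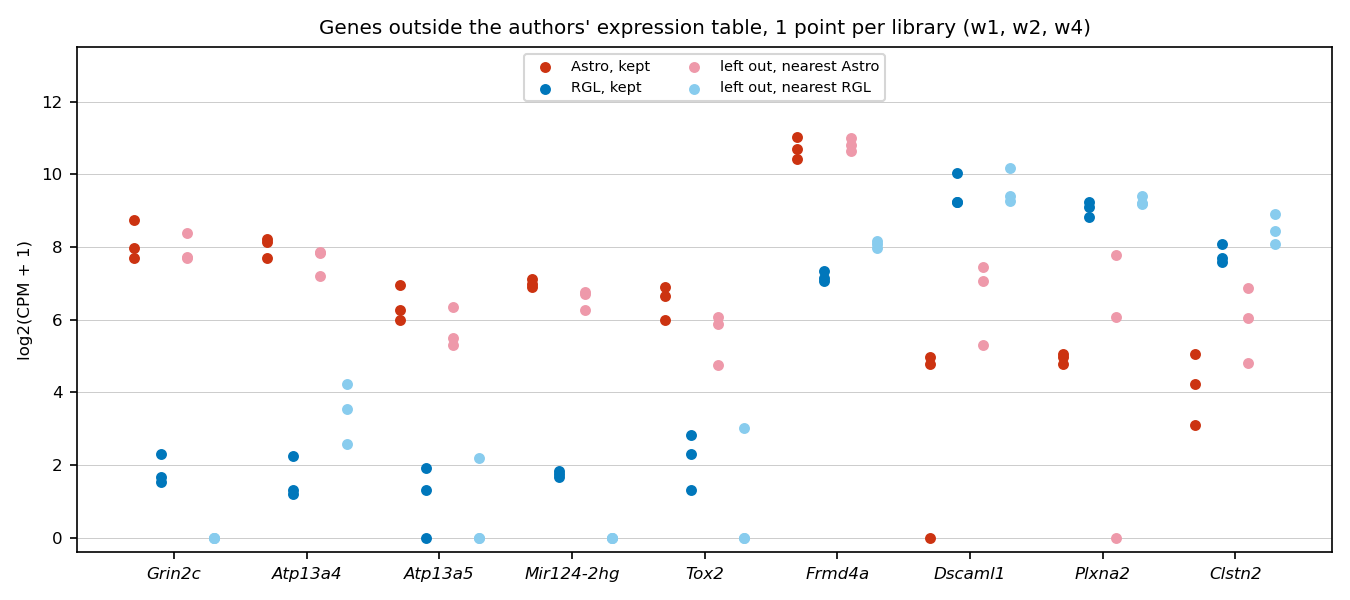
Levels of 9 genes outside the authors' expression table, as log2(CPM + 1), with 1 point for each of w1, w2 and w4, in kept astrocyte and RGL nuclei and in the left-out barcodes nearest to either mean. The 6 genes on the left are higher in both astrocyte sets, such as Grin2c with 0 UMIs in the left-out barcodes nearest to RGLs, and the 3 on the right are lower in both.

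**Figure D4:**
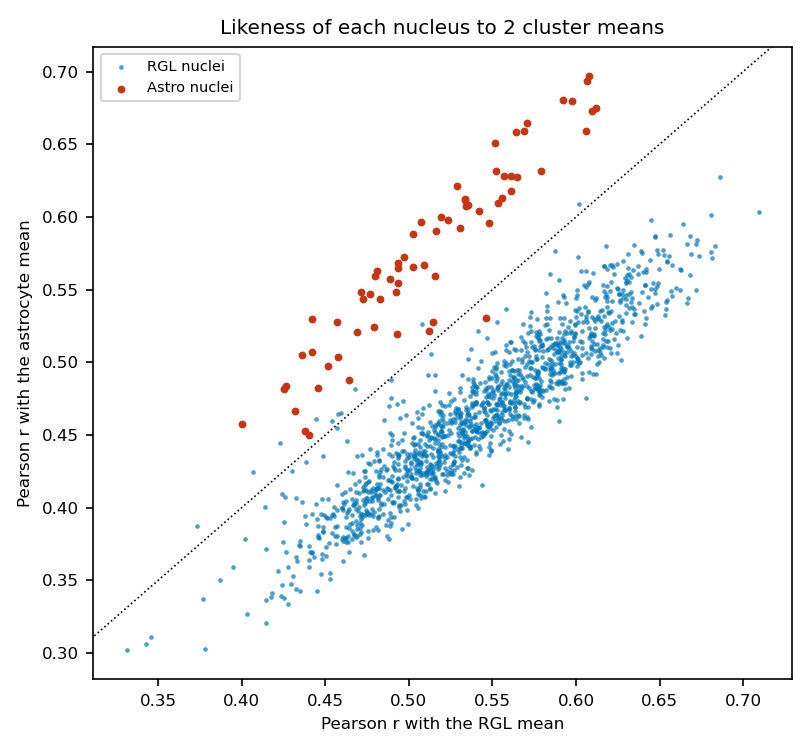
Pearson correlation of each astrocyte and RGL nucleus with the RGL mean (horizontal axis) and the astrocyte mean (vertical axis), both made without the nucleus's own library. The dotted line marks equal correlation, and 66 of 67 astrocyte nuclei lie above it while 10 of 1387 RGL nuclei do.

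As whole profiles, astrocyte nuclei were closer to RGLs than to any other cluster. Over the 11548 genes tested, the summed astrocyte profile correlated at r = 0.840 with RGLs, 0.639 with NPC and 0.613 with OPC, across genes, which are not independent replicates. Within a library, astrocytes and RGLs correlated at 0.758 in w1, 0.760 in w2 and 0.737 in w4, and astrocytes of different libraries at 0.707 to 0.736, where the sums of astrocytes are the shallower. Nucleus by nucleus, the correlation with cluster means made without the nucleus's own library placed 66 of 67 astrocyte nuclei nearest to the astrocyte mean and 1, in w2, nearest to the RGL mean. The median correlation of astrocyte nuclei was 0.569 with the astrocyte mean and 0.512 with the RGL mean. Of the RGL nuclei, 10 of 1387 were nearest to the astrocyte mean (2 from w1, 4 from w4 and 4 from w8). As these means hold the genes that formed the clusters, this places the nuclei and does not test the cluster.

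Between weeks the astrocyte sums can only be set side by side. Of 1964 genes with at least 20 UMIs in w1 and w4 together, 123 were over 2-fold higher in w4 and 163 over 2-fold lower, without a test as each week is 1 pool. Hsp90ab1, a chaperone gene, was at 30.6, 97.9 and 314 CPM over the weeks, with 95% Poisson intervals of 8.35 to 78.5 CPM for w1 and 210 to 451 CPM for w4. In RGLs the ratio of w4 to w1 was 2.65. Mcmbp, which binds the MCM helicase, was at 61.3, 17.8 and 488 CPM, and RGLs were also high in w4, at 427 CPM against 80.5 CPM in w1. Tnc was 6.47-fold higher in w4 than in w1 in astrocytes but 0.629-fold in RGLs. Pde10a, Tmem132b and Mxi1 were the other genes highest in w4, at 5.19-fold to 5.94-fold. Of the genes lower in w4, Cdip1, of a cell death pathway, was at 153, 97.9 and 10.8 CPM (14.1-fold, 1 UMI in w4) while RGLs were at 122, 153 and 133 CPM. The provisional gene 9630028H03Rik was at 253 and 133 CPM in w1 and w2 with 0 UMIs in w4, at least 7.78-fold lower. Reep3, Scn8a, Slc24a4 and Slc43a2 each had 21 UMIs in w1 and 2 in w4 (7.42-fold), and of these Slc43a2 was 2.04-fold lower in RGLs too.

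**Figure D5:**
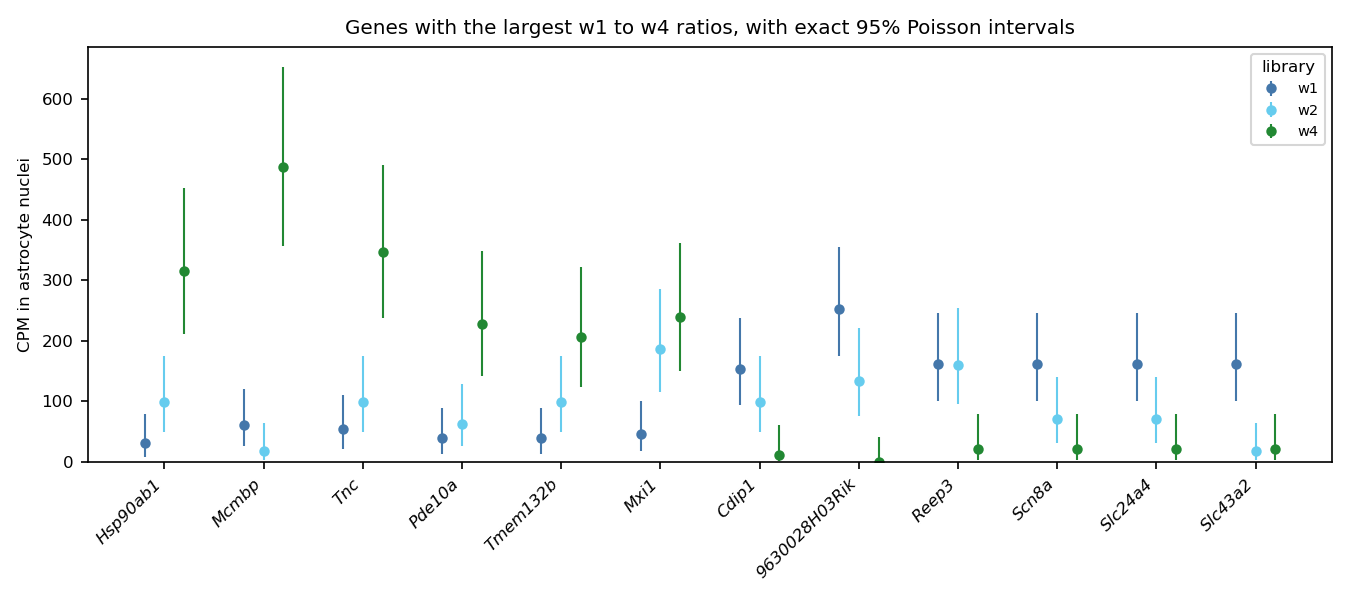
Levels in CPM in the astrocyte nuclei of w1, w2 and w4 for the 12 genes with the largest ratios between w1 and w4, with exact 95% Poisson intervals that cover counting error only. The first 6 genes are highest in w4, such as Mcmbp at 488 CPM, and the last 6 are lowest or near lowest there.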

How the data were processed

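The authors counted UMIs with STARsolo 2.7.4a on GRCm38 (mm10) over exons and introns, and deposited whole UMI counts per gene and barcode for 4 libraries. They also deposited log2 expression (counts over scran size factors, with 1 added) with each nucleus's cluster. Of the 13353 genes of that table, 12209 were matched to a feature by symbol and detection and 1144 by detection alone. Cluster names, here as deposited, were the authors', who had removed nuclei with few features, doublets, nuclei of low quality and a block of w4 nuclei. For each library and cluster with at least 10 nuclei the counts were added up (38 sums, 22 residual degrees of freedom) and fitted with edgeR 4.0.16 (filterByExpr, TMM, quasi-likelihood) with cluster and library as terms. Adjusted p-values are Benjamini-Hochberg values over 11548 genes. Pools hold several animals, so these p-values do not measure the spread between mice. In simulated data for astrocytes against RGLs, 16 of 43 changes of 2-fold and 54 of 54 of 4-fold upward were called. Downward, 14 of 53 changes of 0.5-fold and 36 of 50 of 0.25-fold were called, with 5 false calls. The changed genes were drawn from those expected at more than a few UMIs in every astrocyte sum. All genes had the same spread and no library effect was added. These counts therefore do not cover genes rare in RGLs, such as Grin2c, or genes with a larger spread. Named genes were those of 20 fixed lists, the 10 largest differences in each direction (at least 30 UMIs on the higher side, same direction in w1, w2 and w4), 6 in each direction outside the authors' table, and the 6 largest ratios between w1 and w4. The members, lists and tests were chosen with earlier results of these data known. Alternatives were RLE factors, DESeq2 1.42.0, no count filter, no library term, sums of at least 20 nuclei, fewer clusters, thinning to 2000 UMIs, each library left out, and a fold of 2. Gene positions are from GENCODE M21 and windows before transcription starts from RefSeq (GRCm38.p6). Statistics used R 4.3.3 and Python 3.11.15. Some members of the lists enter the counts but are not reported here by name.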

Additional observations from a re-analysis of the deposited data

Results flagged for a closer look

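Outside the nuclei that the comparisons use, the 2679 barcodes without a column in the authors' table held 63 whose profile was nearest to the astrocyte mean, a signal in data that the comparisons do not cover. A Grin2c UMI was found in 34 of these 63 barcodes, and at least 3 of the 5 given markers in 56 of them. Of the 5 markers only Grin2c lay outside the genes by which the barcodes were assigned. The count of 56 is therefore partly set by that choice and does not test what the barcodes are. They were spread over w1 (18), w2 (27) and w4 (18), while none of the 268 left-out barcodes of w8 was nearest to the astrocyte mean. Their median depth was 5445 UMIs (range 1499 to 18500), 6 had under 1000 detected features and 7 held more UMIs than any kept astrocyte nucleus. Their mitochondrial share exceeded that of every kept astrocyte nucleus (0.204%) in 42 barcodes, 9 of them in w1, 25 in w2 and 8 in w4. The highest share was 49.2%. Why each was left out was not tested. With means over genes of at least 50 UMIs outside the lists, 58 barcodes were nearest to astrocytes.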

How the results depend on the processing

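All 3 counts of called genes kept within 1.5 times their value under most alternatives. Thinning to 2000 UMIs, which also left fewer genes to test, gave 718 genes against RGLs, 1430 against the other clusters and 86 outside the table. A mean of RGLs, OPC, oligodendrocytes and pericytes gave 1649 genes. Leaving out 1 library gave 828 to 896 genes against RGLs, 1921 to 2123 against the other clusters and 113 to 118 outside the table, with the lowest against RGLs without w1. The term for the library pairs the sums that come from 1 library. Without this block the counts were 1184, 2571 and 139. The share of higher calls against RGLs was 53.2%, and 65.7% with RLE factors, the setting that changes the scaling alone. It was 73.5% with DESeq2, which changes scaling and model, and 44.7% without a count filter. Against the other clusters it was 64.4%, lower with trajectory clusters only (50.2%) and sums of at least 20 nuclei (54.5%), and higher with RLE factors (72.8%), DESeq2 (73.2%), thinning (72.1%), without w2 (75.7%) and with the mean of 4 clusters (77.6%). The 154 named results against RGLs include genes without a call, which cannot lose one, so 154 is not the number at risk. Among those called, 39 lost their call under at least 1 alternative, and the difference of Etv4 turned to -0.13 with thinning. Of 20 against the other clusters, 4 did. The medians of these lists changed sign. With thinning those of glial transcription factors, pathway genes, oligodendrocyte markers and microglia markers were -0.25, -0.18, -1.37 and 0.10. That of the transcription factors was also -0.07 without a count filter, -0.09 without w1 and -0.06 without w2, that of pathway genes -0.11 without w2 and that of microglia markers 0.12 without w1. The median of OPC markers was 1.46 with DESeq2 and 0.18 with trajectory clusters only, and that of reactive genes 0.002 without w1. Depth limits what a count of 0 shows, as in 67 nuclei it allows 8.95 CPM.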

Other observations

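Several transcripts that were high in astrocytes had their highest RGL level in w8. Slc4a4 was at 208, 153 and 167 CPM in the RGLs of w1, w2 and w4 and at 602 CPM in those of w8. Paqr8, a membrane progestin receptor gene, was at 214, 218, 206 and 491 CPM. Fam20a was at 89.6, 72.3, 76.6 and 299.6 CPM and Htra1 at 114, 98.2, 84.7 and 233 CPM in the same order. Hapln1 was at 8.26, 8.93, 13.3 and 38.2 CPM. Other astrocyte transcripts did not show this order, as Grin2c was at 3.19 CPM in w8 and Meis2 had 0 UMIs there.

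Among genes with at least 30 RGL UMIs, 237 of 574 genes called higher in astrocytes (41.3%) had their highest RGL level in w8, against 138 of 594 called lower (23.2%) and 2092 of 9167 not called (22.8%). The w8 library held 83 RGL nuclei, of which 4 were nearest to the astrocyte mean. Without these 4 nuclei the shares were 36.9% (212 genes), 24.7% and 23.7%, Slc4a4 was at 498 CPM, Fam20a at 266 CPM, Htra1 at 219 CPM and Aqp4 fell from 44.6 to 20.2 CPM. Each week is 1 pool of mice and w8 is the shallowest RGL sum, so these are values of single libraries, without a test.

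Levels in the left-out barcodes nearest to the astrocyte mean differed with their mitochondrial share, in a direction that depended on the gene. In the 42 barcodes above every kept astrocyte nucleus, Gfap was at 582 CPM, against 366 CPM in the other 21 and 203 CPM in kept astrocytes. Apoe was at 2606, 1098 and 1149 CPM in the same order, Mt1 at 963, 397 and 403 CPM and Aqp4 at 442, 183 and 116 CPM. Glul, Gja1 and Slc1a2 were also highest in the 42 barcodes. Grin2c, at 230, 244 and 307 CPM, was highest in kept astrocytes. So were Atp13a4 (165, 224 and 263 CPM) and Slc7a10 (183, 214 and 307 CPM). Htra1 was lowest in the 42 barcodes (503, 620 and 558 CPM), and Slc1a3 was at 2616, 2155 and 2575 CPM. The neuronal gene Rbfox3 differed between the sets too, at 46.7, 173 and 17.9 CPM. Of the 42 barcodes 25 came from w2, so the library and the mitochondrial share are not separated here.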
